A study of Mus musculus and Homo sapiens with 9 samples.

Results

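The erythroid regulators Sox6, Gata1 and Klf1 were examined together with the genes that act beside them in red cell formation, namely Gata2, Nfe2, Zfpm1, Gfi1b, Bcl11a, Epor and Kit. These 10 genes were picked by symbol, and all 10 had a row in the mouse count table, which held 42462 annotated genes. They were chosen because of how they moved between Irf2bp2 knockout and control T cell libraries, so their differences in that comparison are described and not tested. The mouse data were RNA-seq libraries of CD3+ T cells that were magnetically sorted from spleen. There were 2 libraries from Irf2bp2 knockout mice (Vav-iCre+/-;Irf2bp2 fl/fl) and 3 from controls, which the labels call wild type and the paper describes as Vav-iCre-/-;Irf2bp2 fl/fl. Both genotypes would then carry the floxed Irf2bp2 alleles, and the Cre transgene is what sets the knockout apart. The Vav promoter drives Cre across the whole blood lineage, so red cell precursors and other blood cells of the knockout lose Irf2bp2 as well as T cells. The human data were 4 libraries of J.gamma1, a T-cell leukemia line derived from Jurkat, with 2 carrying a control hairpin (shNC) and 2 a hairpin against IRF2BP2 (shIRF2BP2).

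Red cell formation runs from progenitors that depend on GATA2 and on the receptor KIT to precursors that depend on GATA1, KLF1 and the erythropoietin receptor. GATA1 replaces GATA2 at many sites during this change, and it works with FOG1, the protein of Zfpm1. KLF1 turns on adult beta globin and many membrane and heme genes, and SOX6 and BCL11A silence embryonic and fetal globin genes. In mature T cells the related factors GATA3, BCL11B, GFI1 and KLF2 are the ones in general use.

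The mouse libraries held between 16668577 and 37177523 counts, with control replicate 3 the shallowest, and the human libraries between 26648204 and 31120236. Irf2bp2 had 4145, 4594 and 1915 counts in the controls and 0 and 0 in the knockout, and IRF2BP2 in J.gamma1 fell by 1.22 on the log2 scale. Levels are given as CPM, the counts scaled to a common library size with TMM factors, with the SD between libraries. A gene was called when the adjusted p of edgeR's quasi-likelihood test was under 0.05 and the log2 fold change was at least 1 in mouse or 0.5 in human. No label says that the libraries of a group came from separate animals or cultures, so p-values measure the spread between these libraries. In such bulk libraries fewer cells of a type and less RNA per cell cannot be told apart. All 5 mouse libraries carried the T cell markers, with 5758 to 8575 CPM summed over 16 genes. They also carried red cell precursor markers, whose sum over 9 genes was 1454, 844 and 385 CPM in the controls and 3200 and 4397 CPM in the knockout.

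Of the 10 regulators, 9 were higher in both knockout libraries than in all 3 controls, a pattern shown by 18.2% of all genes tested. Gata2 was the exception. Sox6, Gata1, Klf1 and Gfi1b were called higher, 4 of 10, where 2.47% of the 15350 genes tested were called higher and 0.111% lower. Because the genes were chosen on this contrast, nothing is read from either count. The same holds for every call of the 10 given below, with all libraries or under an alternative. The log2 fold changes ran from 0.27 for Gata2 to 4.07 for Sox6, with a median of 1.89 against -0.018 over all genes tested. Without control replicate 1, Sox6 alone of the 10 remained called, and 0.0397% of all genes tested were called higher. Without knockout replicate 1 or 2 the log2 fold change of Sox6 was 4.145 and 3.959. Without control replicate 2, 8 of the 10 were called, and 532 of 15103 genes tested were called higher.

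**Figure D1:**
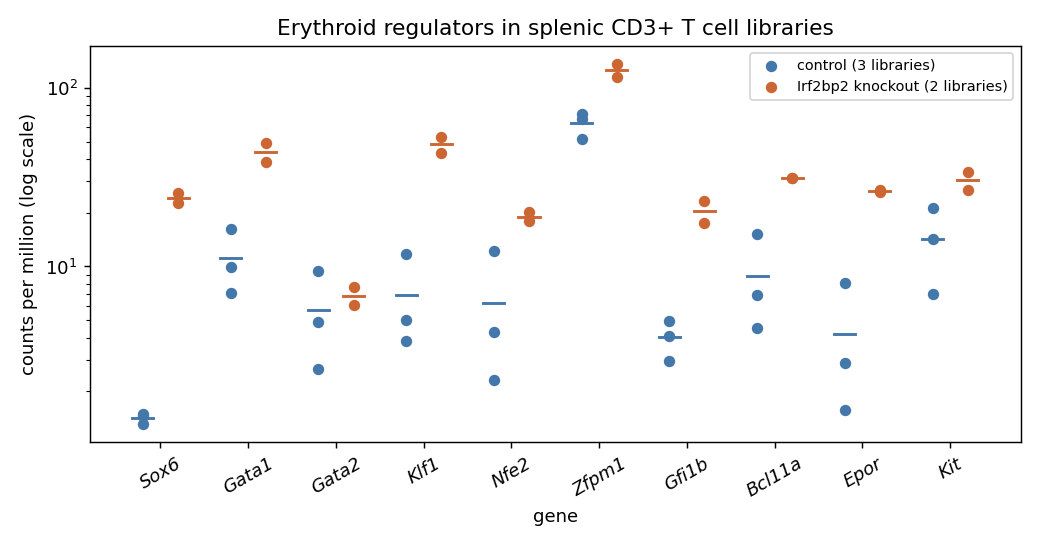
CPM of the 10 regulators on a log axis, with a point for each library and a bar at the group mean (3 controls, 2 knockout libraries). Sox6 lies between 1.31 and 1.49 CPM in the controls and at 22.6 and 25.7 in the knockout, and Gata2 is the gene whose groups overlap.

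Among the GATA factors, Gata1 (X:7959260-7978071, minus strand, GRCm38) encodes the central factor of red cell, megakaryocyte and mast cell formation. It had 9.96, 16.3 and 7.07 CPM in the controls and 38.5 and 49.1 in the knockout, from 113 to 588 counts and from 1476 and 1744 counts. The highest control stood below the lower knockout library by 2.37 times, and the log2 fold change was 1.97 ± 0.335 (SE). Gata2 (6:88193891-88207032, plus strand), which acts in stem cells, progenitors and mast cells, had 2.67, 9.46 and 4.88 CPM in the controls and 6.08 and 7.66 in the knockout. Its groups overlapped and its log2 fold change was 0.27 ± 0.511, which became -0.07 without control replicate 1. The library with the most Gata2, control replicate 2, also had 83.4 CPM summed over 8 mast cell and basophil markers, against 6.94 to 10.5 in the other 4 libraries, and its part in the Gata2 level was not tested. The number of Gata1 counts per Gata2 count was 3.73, 1.72 and 1.45 in the controls and 6.33 and 6.41 in the knockout, so the ratio was higher in both knockout libraries.

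Zfpm1 (8:122282141-122337251, plus strand), whose protein FOG1 binds GATA factors, was the most abundant of the 10. It had 51.8, 67.1 and 71.4 CPM in the controls and 114 and 136 in the knockout, a log2 fold change of 0.98 ± 0.172, just under the threshold. T cells also express Zfpm1, and its level in the controls was 63.5 ± 10.3 CPM (SD, n = 3). Gfi1b (2:28609450-28621982, minus strand), a repressor that acts with LSD1 in red cell and megakaryocyte precursors, had 2.97, 4.98 and 4.07 CPM in the controls and 17.4 and 23.2 in the knockout. Its log2 fold change was 2.34 ± 0.285, and its controls lay closer together than those of Gata1, with the highest 1.68 times the lowest.

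Klf1 (8:84901928-84905291, plus strand), the factor that activates adult beta globin, had 5.02, 11.8 and 3.82 CPM in the controls and 43.4 and 53.2 in the knockout. The log2 fold change was 2.79 ± 0.451, and the lower knockout library stood 3.67 times above the highest control. Per Gata1 count there were 0.504, 0.726 and 0.540 Klf1 counts in the controls and 1.13 and 1.08 in the knockout. Nfe2 (15:103248212-103258403, minus strand), a subunit of a factor that binds the globin control region and acts in platelet formation, had 4.32, 12.2 and 2.31 CPM in the controls and 18.0 and 20.1 in the knockout. Its controls varied 5.27-fold among themselves, and its log2 fold change of 1.58 ± 0.607 was not called.

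Sox6 (7:115470872-116038796, minus strand) encodes an HMG-box factor that represses embryonic globin and promotes red cell maturation. It had 1.46, 1.49 and 1.31 CPM in the controls, from 54, 54 and 21 counts, and 22.6 and 25.7 CPM in the knockout, from 865 and 912 counts. The mean was 17.0-fold higher in the knockout, with a log2 fold change of 4.07 ± 0.217, and the controls were within 1.14 times of each other. Bcl11a (11:24078056-24174123, plus strand), a globin repressor that B cells and dendritic cells also use, had 6.96, 15.1 and 4.50 CPM in the controls and 31.4 and 31.4 in the knockout. Its log2 fold change was 1.81 ± 0.456 without a call. The 8 B cell markers summed to 157, 268 and 36.9 CPM in the controls and to 109 and 37.5 in the knockout. Over the controls they ran in the same order as Bcl11a, and in the knockout libraries they lay within the range of the controls; their part in the Bcl11a level was not tested. Of the embryonic globins that these repressors act on, Hbb-y had 5 counts and Hba-x 10 counts, each in 1 knockout library, and all other values of the 4 genes were 0.

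Both receptors were higher in the knockout libraries. Epor (9:21958897-21963506, minus strand), the erythropoietin receptor, had 2.89, 8.10 and 1.56 CPM in the controls and 26.1 and 26.7 in the knockout. The log2 fold change was 2.63 ± 0.594, without a call, and its controls varied 5.18-fold. Kit (5:75574916-75656722, plus strand), the stem cell factor receptor of progenitors and mast cells, had 14.3, 21.2 and 7.01 CPM in the controls and 34.0 and 26.9 in the knockout. Its groups were the closest among the 9 that did not overlap, with the lower knockout library at 1.27 times the highest control and a log2 fold change of 1.09 ± 0.410.

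Several regulators are known to act on each other's promoters, so the 250 bases before each start were searched for short words, on both strands, in the RefSeq promoters (GRCm38.p6). Of the 10 genes, 9 had an entry. The GATA words searched for were AGATAA, its close variant AGATAG, the word TGATAA, and lastly its variant TGATAG. At least 1 was found in 4 of the 9 genes (Sox6, Gfi1b, Epor and Klf1), or 44.4%, against 29.7% of all 27025 genes. The 95% interval of the 44.4% ran from 13.7% to 78.8%. A gene counted when any of its entries held a word, and the 27025 genes had 32851 entries. Sox6 had several entries, and the one furthest upstream, at chr7:116038745-116038994, held no GATA word. The KLF1 word CCNCNCCC was in 8 of 9 genes against 48.5%, the SOX word AACAAT in 1 of 9 against 10.9%, and TGAGTCA, the core of the NFE2 word that AP-1 shares, in 0 of 9 against 5.16%. The KLF1 word is met in any stretch rich in C, and a match is a description of letters only. The sequences of 3 promoters with a GATA word, and that of Gata1 without it, are given 5′ to 3′ with the word in capitals. They lie at chr7:115846141-115846390 for Sox6, at chr2:28621983-28622232 for Gfi1b, at chr9:21963577-21963826 for Epor and at chrX:7967911-7968160 for Gata1, all on the minus strand. Those of Sox6 and Gata1 are at internal starts, within the annotated span of the gene.
Sox6 internal start: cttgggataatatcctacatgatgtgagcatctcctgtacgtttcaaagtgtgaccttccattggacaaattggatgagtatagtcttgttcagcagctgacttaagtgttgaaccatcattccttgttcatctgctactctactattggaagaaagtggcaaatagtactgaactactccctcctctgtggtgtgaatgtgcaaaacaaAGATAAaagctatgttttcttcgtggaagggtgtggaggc
Gfi1b: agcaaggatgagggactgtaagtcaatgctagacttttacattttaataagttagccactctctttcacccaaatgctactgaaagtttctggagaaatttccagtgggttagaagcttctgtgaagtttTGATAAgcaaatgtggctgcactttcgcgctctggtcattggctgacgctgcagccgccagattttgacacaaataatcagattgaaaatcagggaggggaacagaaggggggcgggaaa
Epor: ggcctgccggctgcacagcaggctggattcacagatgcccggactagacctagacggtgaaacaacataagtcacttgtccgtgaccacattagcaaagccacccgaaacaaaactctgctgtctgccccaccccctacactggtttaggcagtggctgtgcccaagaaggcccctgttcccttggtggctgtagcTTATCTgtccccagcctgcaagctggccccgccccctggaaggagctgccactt
Gata1: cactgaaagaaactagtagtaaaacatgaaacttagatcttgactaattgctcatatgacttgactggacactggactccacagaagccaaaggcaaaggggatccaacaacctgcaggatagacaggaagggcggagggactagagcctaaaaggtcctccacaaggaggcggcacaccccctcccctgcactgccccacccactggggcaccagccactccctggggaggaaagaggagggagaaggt
The word begins 40 bases before the start in Sox6, 120 in Gfi1b and 54 in Epor, where it reads on the other strand.

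Levels were compared between genes as CPM per kb of exon, over the union of annotated exons. In the controls Zfpm1 was highest with 18.1 CPM per kb and Sox6 lowest with 0.0959, and the range of every other gene over the 3 libraries overlapped that of its neighbour in the order. In the knockout the order was Zfpm1 (35.7), Klf1 (31.6), Gata1 (18.0), Epor (13.3), Gfi1b (11.1), Nfe2 (6.37), Kit (3.42), Bcl11a (2.38), Sox6 (1.63) and Gata2 (1.27). There, Zfpm1 and Klf1 were the sole neighbours whose ranges overlapped. Sox6 was thus the gene with the largest fold change and, per length, the second lowest level in the knockout, and Gata2 moved from rank 8 to rank 10.

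Of 36 genes known as targets of GATA1 or KLF1 in red cell precursors, 22 were called higher, where 2.47% of all genes tested were, and none lower. The median log2 fold change was 2.46, and the 14 without a call included Bpgm at -0.00, Xpo7 at 0.19, E2f4 at 0.20, Rgs18 at 0.26 and Epb41 at 0.41. Among those with the largest changes were genes for the membrane skeleton and the Rh complex. Sptb, beta spectrin, had 7.72, 8.19 and 5.13 CPM in the controls and 148 and 151 in the knockout, a log2 fold change of 4.40 with an adjusted p of 0.0012 by edgeR's quasi-likelihood test. By the same test, Ank1 (ankyrin) rose by 3.92 with an adjusted p of 0.0045, and Rhag (the Rh-associated glycoprotein) by 3.70 with 0.016. Without control replicate 1, 2 of the 36 were called, Sptb among them, and without knockout replicate 1 or 2 there were 7 and 5. By DESeq2 there were 26 higher and 0 lower, where it called 735 of the 15350 genes tested higher and 66 lower. By edgeR 0 were lower at an unadjusted p under 0.05, where 2488 of all genes tested had such a p in either direction. The 4 measured adult globin genes were all above the controls in both knockout libraries, where 18.2% of all genes tested were. Of them edgeR called 0, DESeq2 called 1, and 4 had an unadjusted p under 0.05 by edgeR. Hbb-bs, adult beta globin, had 696, 348 and 168 CPM in the controls and 1218 and 1733 in the knockout (adjusted p = 0.14), and Hba-a1 had an adjusted p of 0.15.

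Of the 16 partners that bind DNA with GATA1, FOG1 or GFI1B, 1 was called higher, where 2.47% of all genes tested were. It was Tal1, the helix-loop-helix factor of the GATA1 complex, with 6.83, 16.2 and 4.63 CPM in the controls and 68.8 and 88.9 in the knockout, a log2 fold change of 3.07 and an adjusted p of 0.027. The median over the list was -0.01, and Tal1 was not called without control replicate 1 or without either knockout library. Among 6 small MAF partners of NFE2 and their competitors, edgeR and DESeq2 called 0, with 1 at an unadjusted p under 0.05. That gene, Mafg, also passed the adjusted p (0.039), with 30.2, 24.9 and 25.3 CPM in the controls and 47.0 and 47.6 in the knockout, and missed the fold threshold at a log2 fold change of 0.82. The 2 most abundant, Nfe2l1 and Nfe2l2, had log2 fold changes of 0.08 and -0.26. In EPO and KIT signalling 3 of 16 genes were called higher, where 2.47% of all genes tested were. All 3 are known as response genes or markers of red cell precursors. Tfrc, the transferrin receptor, had 75.6, 72.0 and 83.7 CPM in the controls and 277 and 323 in the knockout, with a log2 fold change of 1.96 and an adjusted p of 0.0045. Erfe, the hormone erythroferrone, rose by 4.52 with an adjusted p of 0.031, and Podxl, a sialomucin, by 4.34 with 0.046, each from at most 33 counts in any control. Without control replicate 1 or knockout replicate 2 none of the 3 was called, and without knockout replicate 1 there was 1 call. The kinase and signal genes Jak2, Stat5a and Stat5b had log2 fold changes of 0.18, -0.10 and -0.14.

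Family relatives of the regulators, several of them T cell factors, were measured in the same libraries. None of 11 tested was called by edgeR or DESeq2, 3 had an unadjusted p under 0.05, and the median log2 fold change was -0.03. Of those 3, Gfi1 and Tox were higher and Sox5 lower. Both knockout libraries were below all controls for 3 of 11, Sox4 (-0.59), Sox5 (-1.61) and Sox13 (-1.34), where 17.8% of all genes tested were. They were above all controls for 2, where 18.2% were. Gata3, the GATA factor of T cells, had 48.6, 45.0 and 55.6 CPM in the controls and 47.5 and 49.9 in the knockout (adjusted p = 0.95). Bcl11b, the T cell relative of Bcl11a, had a log2 fold change of 0.03 (adjusted p = 0.97), Gfi1 of 0.36 (adjusted p = 0.27) and Klf2 of -0.37 (adjusted p = 0.63). None of 11 progenitor factors was called by either tool, with 1 at an unadjusted p under 0.05, and the most abundant, Fli1 and Myb, had log2 fold changes of -0.11 and 0.37.

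**Figure D2:**
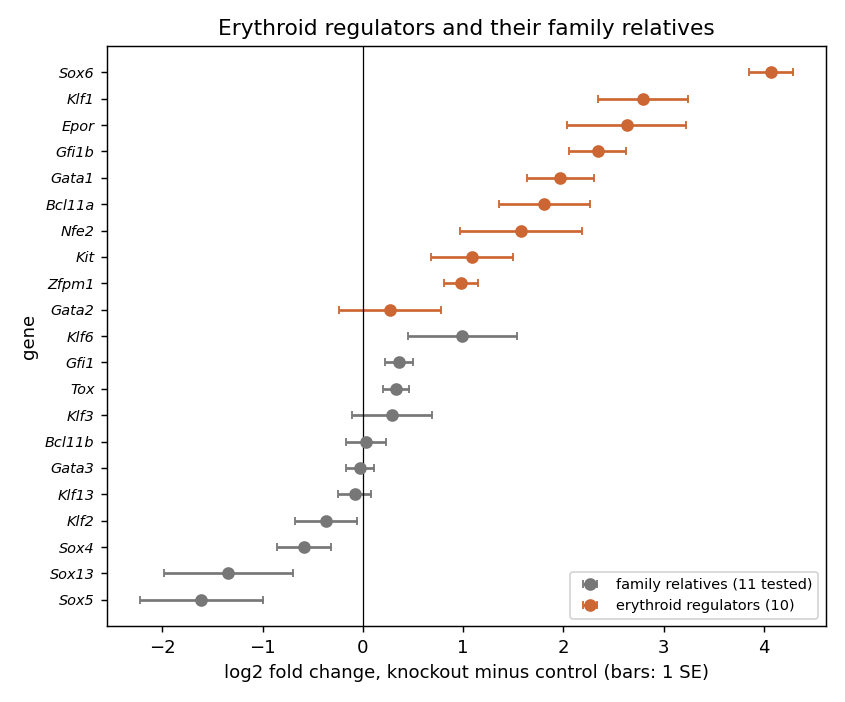
Log2 fold change of knockout minus control with 1 SE for the 10 regulators (orange) and the 11 tested family relatives (grey). The regulators run from 0.27 to 4.07 and the relatives from -1.61 to 0.99.

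Markers of other cells were set beside these results, and their part in them was not tested. Of 9 red cell precursor markers 6 were called higher, where 2.47% of all genes tested were. Their median was 3.50, and most of them are also among the 36 targets. The calls fell to 1 without control replicate 1, to 2 without knockout replicate 1 and to 1 without knockout replicate 2. The T cell markers were below all controls in both knockout libraries for 14 of 16 genes, where 17.8% of all genes tested were, with a median of -0.43. There were 0 calls by edgeR or DESeq2, while 9 of 16 were lower at an unadjusted p under 0.05 by edgeR. Of the 15350 genes tested, 2488 had such a p in either direction. Cd8b1, a chain of the CD8 coreceptor, passed the adjusted p (0.021) and missed the fold threshold at -0.94. The 2 most abundant, Lck and Thy1, had control means of 1015 and 940 CPM and log2 fold changes of -0.43 and -0.60 (adjusted p = 0.23 and 0.067). Megakaryocytes also use Gata1, Gfi1b, Nfe2 and Zfpm1, and 10 of their markers summed to 97.2, 99.1 and 125 CPM in the controls and 145 and 141 in the knockout, mostly Itgb3. Of the 7 tested by edgeR 0 were called, 2 had an unadjusted p under 0.05, and DESeq2 called 1, Vwf. Vwf and Gp9 were the 2 with that p. Of the 7, 3 were above all controls in both knockout libraries (Vwf, Gp9 and Itgb3), where 18.2% of all genes tested were. Vwf, the von Willebrand factor, had 1.27, 1.85 and 0.375 CPM in the controls and 4.99 and 4.68 in the knockout (adjusted p = 0.14), and Gp9, a platelet glycoprotein, had 3, 10 and 0 counts and then 43 and 49 (adjusted p = 0.14). The platelet gene Pf4 overlapped between the groups, at or under 1.38 CPM in every library. Myeloid markers summed to 148, 405 and 38.9 CPM in the controls and 146 and 90.2 in the knockout, and natural killer markers to 108, 102 and 78.5 and to 105 and 217. Of the 6 natural killer markers edgeR called 0 and DESeq2 called 1, lower, where it called 66 of 15350 lower. At an unadjusted p under 0.05 by edgeR, 2 were lower, Klra8 (-3.02) and Ncr1 (-2.28), and 1 higher, Gzma (1.92). Gzma had 25.2, 24.9 and 9.32 CPM in the controls and 36.2 and 115 in the knockout. The plasma cell markers summed to 1156, 414 and 536 CPM and to 1507 and 1142, mostly Jchain. Of these 7, 1 was called higher, Prdm1, where 2.47% of all genes tested were. That call was lost without control replicate 1 or 3 and without either knockout library.

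To show which regulators moved apart from the erythroid level as a whole, each was divided by the summed counts of the 36 targets in the same library. Sox6 had 1.32, 1.14 and 1.29 counts per 1000 target counts in the controls and 5.82 and 5.55 in the knockout, 4.55 times as many. Klf1 (1.97 times) and Gfi1b (1.36 times) were also above all controls in both knockout libraries. Gata1 had 8.99, 12.4 and 6.95 in the controls and 9.92 and 10.6 in the knockout, so its groups overlapped, as did those of Epor, Bcl11a, Nfe2 and Kit. Zfpm1 (0.525 times) and Gata2 (0.336 times) were below all controls. With the 4 adult globins as the denominator, Sox6 stayed above all controls at 3.79 times, and the groups of the other 9 overlapped. These ratios use the contrast on which the genes were chosen and carry no test.

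**Figure D3:**
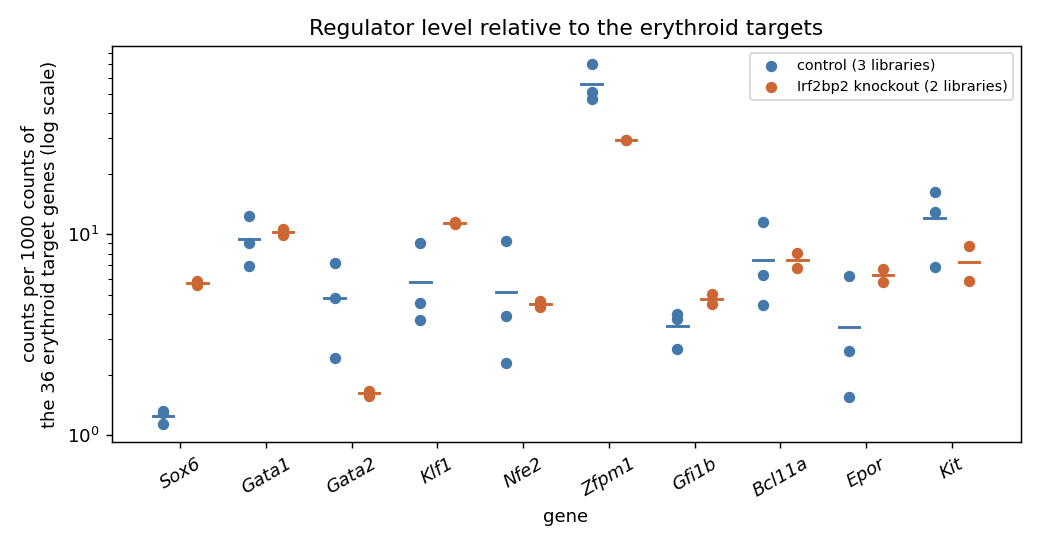
Counts of each regulator per 1000 counts of the 36 erythroid target genes, on a log axis, with a point for each library and a bar at the group mean. Sox6 is at 1.14 to 1.32 in the controls and at 5.55 and 5.82 in the knockout, and the Gata1 groups overlap.

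The genes most like 3 of the regulators were ranked by the root mean square difference of centred log2 CPM over the 5 mouse libraries. For Sox6 they included Apol8 (0.173) and Pkhd1l1 (0.209). For Gata1 they were Neil3 (0.0624), a DNA glycosylase, Mcm10 (0.0752), a DNA replication factor, and Ccnf (0.0875), cyclin F. For Klf1 they were Sh3tc2 (0.0819), Slc38a5 (0.0995), an amino acid transporter, and Kel (0.142), the Kell blood group protein. Like Gata1 and Klf1, their 6 nearest genes were each highest among the controls in replicate 2. Among the 10 regulators the closest pair was Gata1 and Bcl11a, at 0.210.

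The human orthologs gave libraries that played no part in the choice of genes. Of the 10, 8 passed the filter on low counts, 1 was called lower and 0 higher, where 5.01% of 15819 genes were called lower and 5.46% higher. The called gene was BCL11A, with 36.7 and 32.9 CPM in shNC and 23.5 and 23.1 in shIRF2BP2. It fell by 0.58 on the log2 scale (SE 0.136), with an adjusted p of 0.035 by edgeR's quasi-likelihood test. The call did not hold without shIRF2BP2 replicate 1 (adjusted p = 0.12) or 2 (0.15), or when every gene with a count anywhere was kept (0.077), and over all 11 alternatives the adjusted p ranged from 0.0081 to 0.15.

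GATA1 had 0 and 0 counts in shNC and 2 and 0 in shIRF2BP2, and GFI1B had 0 in all 4 libraries, where a count of 0 allows up to 0.0967 to 0.116 CPM. SOX6 had 0.386 and 0.290 CPM in shNC and 0.309 and 0.407 in shIRF2BP2 (log2 fold change 0.09 ± 0.620, adjusted p = 0.94). KLF1 had 1.04 and 0.290 CPM and then 0.378 and 0.102 (adjusted p = 0.32). NFE2 had 1.58 and 3.03 CPM and then 0.0687 and 0.984, lower in both libraries without a call (adjusted p = 0.15). Those values came from 41 and 94 counts and from 2 and 29. GATA2 was 7.14 and 7.93 CPM and then 10.8 and 10.7, a log2 fold change of 0.51 ± 0.199 (adjusted p = 0.14), and KIT was 7.57 and 9.77 and then 10.3 and 12.4 (adjusted p = 0.3). The groups of ZFPM1 and EPOR overlapped (adjusted p = 0.93 and 0.74). Thus 2 of the 8 tested orthologs were above both controls in both knockdown libraries, where 29.6% of all genes tested were, and 2 were below, where 28.7% were. J.gamma1 libraries were not compared with the mouse libraries in level, since the tables were made separately.

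**Figure D4:**
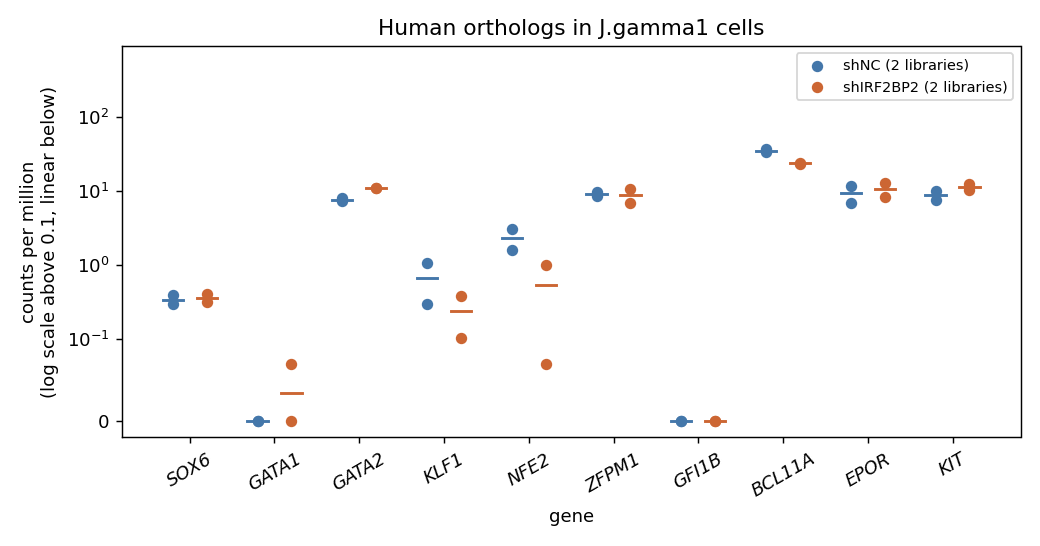
CPM of the human orthologs in J.gamma1 cells (2 shNC and 2 shIRF2BP2 libraries), on an axis that is logarithmic above 0.1 and linear below, with a bar at the group mean. BCL11A is at 36.7 and 32.9 in shNC and at 23.5 and 23.1 in shIRF2BP2, and GFI1B is at 0 throughout.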

How the data were processed

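RNA-seq of sorted mouse splenic CD3+ T cells (2 knockout, 3 control libraries) and of J.gamma1 cells (2 shNC, 2 shIRF2BP2) was analysed, grouped by the labels. The authors aligned reads with HISAT2 2.2.0 (mm10 and hg38) and estimated abundance with StringTie. They deposited counts, whole numbers for each gene in each library, neither normalized nor pooled. How coverage became counts, and whether strand was used, is not given in the sources used here. Rows with a GENCODE identifier were kept, 42462 of 43432 in mouse and 56105 of 64252 in human, holding at least 99.81% and 97.89% of the counts.

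Low genes were removed by filterByExpr, libraries were scaled with TMM factors, and edgeR 4.0.16 in R 4.3.3 gave the test (glmQLFit, glmQLFTest, group as sole term, Benjamini-Hochberg over all genes tested). The scripts were tested on simulated data. Replicates differed by more than sampling noise (chi-square per gene at least 18.2), and floors (3 counts) cover counting error only. The SE comes from the quasi-likelihood test and the SD from the libraries of a group, so both include the spread between libraries. The biological coefficient of variation was 0.271 in mouse and 0.165 in human.

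The 10 regulators, the lists and the alternatives were chosen with earlier results of these data known. Named genes were the regulators and their orthologs, in each list the called genes with the 4 largest changes or the 2 most abundant where none was called, 4 fixed T cell factors, up to the 2 most abundant genes of each marker list, and the 3 genes most like Sox6, Gata1 and Klf1 with a mean of at least 1 CPM. Jak2, Stat5a, Stat5b, Pf4, Gp9, Vwf, Cd8b1, Mafg, Flt3, Bpgm, Xpo7, E2f4, Rgs18, Epb41 and Prdm1 were named after their values were seen. So were Klra8, Ncr1, Sox4, Sox5, Sox13 and Tox. The alternatives included DESeq2 1.42.0. Some genes that these rules would name are not reported here.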

Additional observations from a re-analysis of the deposited data

Results flagged for a closer look

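Nfe2 and Bcl11a were higher in both mouse knockout libraries than in all controls, with log2 fold changes of 1.58 and 1.81, while their human orthologs NFE2 and BCL11A were lower in both knockdown libraries than in both shNC libraries, with -2.13 and -0.58. With each human library left out in turn, NFE2 ranged from -4.99 without shIRF2BP2 replicate 2 to -1.26 without shIRF2BP2 replicate 1, and BCL11A from -0.66 to -0.50. NFE2 had 41 and 94 counts in shNC and 2 and 29 in shIRF2BP2. Its -4.99 thus rests on a knockdown library with 2 counts, under the floor of 3 counts. The values moved in opposite directions in the sorted mouse spleen libraries and in J.gamma1 cells, and the difference itself was not tested. Nfe2, Bcl11a and NFE2 were not called, and BCL11A was called lower. The mouse libraries also carried red cell precursor markers, higher in the knockout, and their part was not tested. The 2 experiments differ in species, in the kind and mix of cells and in how IRF2BP2 was lost, and these cannot be told apart.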

How the results depend on the processing

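The number of genes called changed under several alternatives, and the cause was not tested. DESeq2 called 735 mouse genes higher and 66 lower in place of 379 and 17. The 3 control and 2 knockout libraries share only replicate numbers 1 and 2. Same-numbered libraries had correlated deviations of 0.15 and -0.16 in mouse and 0.23 in human. In a group of 2 libraries the deviations mirror each other, so these values cannot settle pairing. No label names pairs, and the numbers were not taken as pairs. With the replicate block, 407 mouse genes were called higher and 35 lower, and 6 of the 10 regulators were called higher. In human that block gave 1293 higher and 1174 lower, in place of 864 and 793. With each library left out in turn, mouse calls ranged from 6 to 532 higher and from 1 to 35 lower, the fewest without control replicate 1. Calls over the pathway lists ranged from 2 to 33 higher, from 26 with all libraries, with 2 without control replicate 1, 8 without knockout replicate 1 and 5 without knockout replicate 2. Human calls ranged from 418 to 1608 higher and from 419 to 1143 lower, the fewest without shIRF2BP2 replicate 1, and keeping every gene with a count anywhere gave 319 and 396. Where a group was left with 1 library, that library was assumed to vary like the others. The median log2 fold change of the 10 regulators stayed between 1.62 and 2.47 under all 13 alternatives. Of the 130 alternative values of single regulators 128 moved by less than the spread between replicates, 1 moved further (Sox6, 3.96 without knockout replicate 2), and 1 changed sign (Gata2, -0.072 without control replicate 1, in a range up to 0.905). The median log2 difference of the regulators relative to the erythroid targets was 0.138, and it ranged from -0.119 without control replicate 3 to 0.512 without control replicate 2. Among the orthologs that were not called, SOX6 (up to 0.296) changed sign to -0.109 and -0.124 without shNC replicate 2 and shIRF2BP2 replicate 2, EPOR (up to 0.600) to -0.137 and -0.146 without shNC replicate 1 and shIRF2BP2 replicate 2, and ZFPM1 (down to -0.425) to 0.034 and 0.233 without shNC replicate 2 and shIRF2BP2 replicate 2. NFE2 passed the threshold by edgeR with the replicate block (adjusted p = 0.012). Its log2 fold change was -4.992 without shIRF2BP2 replicate 2, which left a knockdown library with 2 NFE2 counts. Levels per length with the longest transcript in place of all exons, chosen after seeing the data, moved 7 of the 10 knockout levels by more than the spread between libraries.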
